A study of Arabidopsis thaliana with 4 samples.

Results

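The brightest probe sets of green shoot tissue were described here, namely the 200 of 22746 probe sets chosen by the highest mean log2 value over the wild type arrays, after 64 array controls had been left out. Green tissue without roots was taken at 20 days of age, according to the labels, whereas the study's text names a younger age for its seedlings. The titles and the study's results name green tissue for both groups, but its methods name whole tissue for wild type. For this comparison the study's results speak of triplicates, but for its array experiments together of duplicates or triplicates. Here 2 arrays a group are held. The wild type group held 2 samples of the L. er accession. The gl3 egl3 group held 2 samples of the double mutant, whose titles name neither an accession nor the alleles. Both genes encode transcription factors of the basic helix-loop-helix family with overlapping roles in starting leaf trichomes, which the double mutant lacks. Total RNA of each sample was amplified, labelled and hybridised to 1 Affymetrix ATH1 array, which reads each transcript with a set of short probes, and the methods describe the replicates as biologically independent material. No probe set was assigned to GL3 or EGL3 alone in the annotation used here, so the genotype was not checked on the transcripts of these genes.

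In green tissue a large share of the RNA serves photosynthesis. The chloroplast keeps a small genome of its own, which encodes core subunits of the photosystems, of the chloroplast ATP synthase and of its ribosomes, whereas the nucleus encodes the antenna proteins, the remaining subunits and most enzymes of carbon fixation, which are imported into the chloroplast. Photosystem II splits water, photosystem I reduces ferredoxin, and the ATP synthase uses the proton gradient across the thylakoid membrane. Rubisco and the other enzymes of the Calvin cycle then fix carbon dioxide in the stroma.

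Genes of the chloroplast were the most numerous among the members whose role is given here, and the levels of the list differed little between the groups. Of the 200 members, 76 were read by a probe set with 1 gene in the annotation, 10 by a probe set with several genes and 114 by a probe set that is unnamed here, which does not mean that it has no gene. The unnamed share was 57% of the members and 38.4% of all probe sets. Among the 76 members with 1 gene, 12 were encoded in the plastid genome. Of the nuclear members grouped by role, 9 were thylakoid proteins, 4 were enzymes of carbon fixation and photorespiration and 2 were other plastid proteins. Another 36 were known by locus number only and were given no role. The counts by role may therefore be too low, and roles not named here may be frequent in the list. Plastid genes made up 15.8% of the members with 1 gene and 0.511% of all probe sets with 1 gene. With unnamed probe sets counted in the total, these plastid genes were 12 of 200 members, or 6%, and 69 of all 22746 probe sets. Nuclear members with 1 gene numbered 27 on chromosome 1, 10 on chromosome 2 and 9 on each of chromosomes 3, 4 and 5. Probe sets of the kinds that can bind several transcripts made up 9% of the members and 4.66% of all probe sets.

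The level of a probe set depends on how well its probes bind as well as on the amount of RNA, so the list holds the brightest probe sets, which need not be the most abundant transcripts. The order of the levels is therefore used below only to follow the same probe set from one array or group to another. Of the 12 green leaf marker genes listed for a check of the tissue, 4 were measured. RCA, the activase of Rubisco, LHCB4.1, a minor antenna protein of photosystem II, and psbA, which encodes a reaction centre protein of photosystem II, were members, while rbcL, the large subunit of Rubisco, was at rank 838 in wild type. Of 6 root markers 2 were measured, and of these EXPA7 stood at 2.15 on the log2 scale in wild type, at the bottom of the scale, but PYK10, a beta-glucosidase abundant in roots, had a log2 mean of 10.70 in wild type and 10.54 in gl3 egl3. LEA4-5, the 1 measured of 4 seed markers, was at 2.35 in both groups. FAMA, the 1 measured of 3 guard cell markers, had 6.82 and 7.39 in wild type and 7.09 and 6.61 in gl3 egl3. None of the flower, senescence and vascular markers was found among the probe sets with 1 gene.

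The choice of members was fixed by the wild type arrays, which are also one side of every difference between the groups, so the differences and counts of the members are given as a description and not as a test. The log2 value of the members ranged from 11.46 to 14.07 on wild type replicate 1 and from 11.65 to 14.13 on wild type replicate 2, with medians of 12.31 and 12.25. On gl3 egl3 replicate 1 the same probe sets ranged from 11.37 to 14.04, and on replicate 2 from 10.99 to 14.05, with medians of 12.33 and 12.29. All 200 thus stayed far above the median of all probe sets, which was between 4.92 and 4.99 on the 4 arrays.

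**Figure D1:**
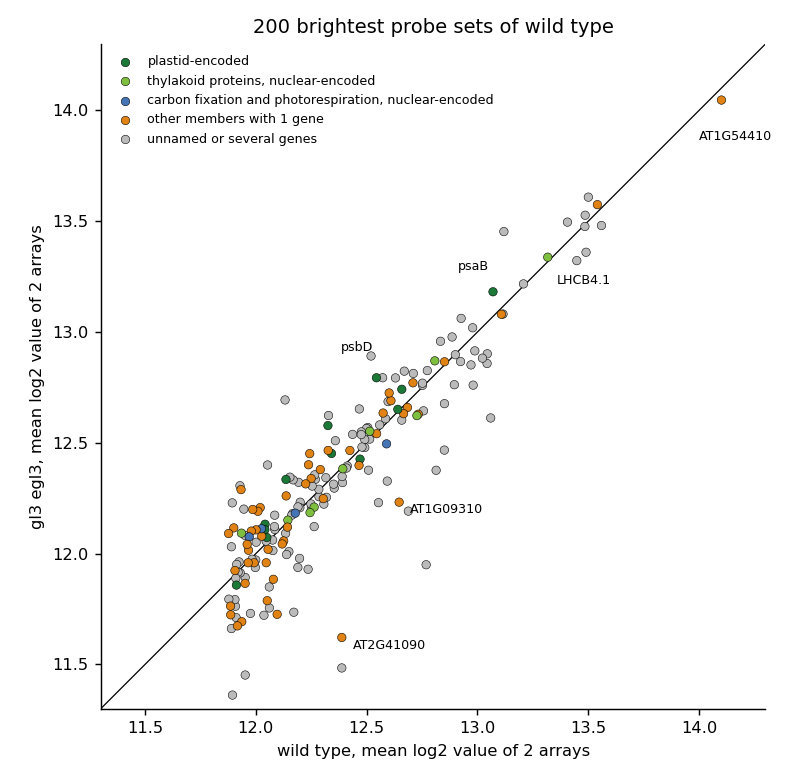
Mean log2 value of each of the 200 members in wild type (x axis) and in gl3 egl3 (y axis), 2 arrays each, with points coloured by group and the diagonal marking equal values. Most points lie within 0.25 of the diagonal, and AT2G41090 is the named gene farthest below it.

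The median log2 difference, gl3 egl3 minus wild type, was 0.00 over the members and 0.01 over all probe sets. The middle part of the members lay between -0.08 and 0.09, and the full range was from -0.90 to 0.56. A log2 difference of 1 is a doubling, and no member reached it, beside 2.95 percent of all probe sets. Of the 200 members, 110 differed by less than 0.1 and 171 by less than 0.25, which is 85.5% of the members against 70.6% of all probe sets. An absolute difference over 0.5 was found for 5 members, or 2.5%, beside 12.3 percent of all probe sets. Only 11298 of the 22746 probe sets had a mean log2 value of 5 or more, so the shares over all include many dim ones. With the members left out, 1938 of the 11098 probe sets at that level differed by over 0.5. The median absolute difference was 0.203 over these 11098 and 0.0880 over the members. Between replicate arrays the median absolute difference was 0.214 in wild type and 0.195 in gl3 egl3 over the 11098. Over the members it was 0.106 and 0.120, so the members also differed less between replicates. In gl3 egl3, 102 members were higher and 98 lower, but with quantile normalization applied again these counts became 80 and 119, and with each array centred on its median 78 and 122. Centring had the like effect on all probe sets, of which 14284 were higher and 8450 lower as deposited, and 8336 and 14410 after centring. With quantile normalization, by contrast, 13193 of all probe sets were still higher and 9552 lower.

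Taken array by array, the members differed across the groups by amounts that lay on both sides of those within a group. The median absolute log2 difference over the members was 0.106 between both wild type arrays and 0.120 between both gl3 egl3 arrays. Between an array of one group and an array of the other it was from 0.0929 to 0.146, so some pairs of arrays from different groups were closer than replicates and others were farther apart. The largest separation of replicates was 0.93 in wild type and 1.11 in gl3 egl3, both at unnamed probe sets. The next 200 probe sets by wild type mean, down to rank 400, had medians of 0.185 between the wild type arrays, 0.128 between the gl3 egl3 arrays and from 0.128 to 0.214 between single arrays of different groups.

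**Figure D2:**
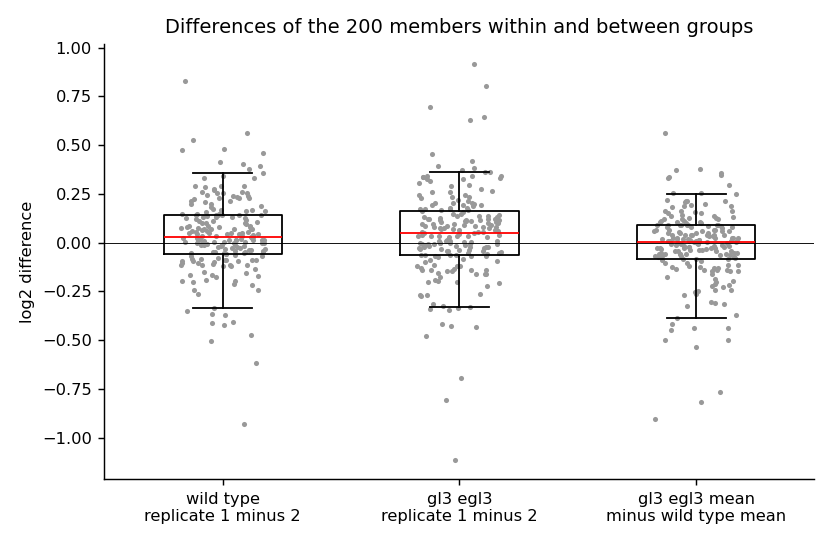
Log2 differences of the 200 members (y axis) between both wild type arrays, between both gl3 egl3 arrays and between the group means, with 1 point for each probe set, boxes for the middle part of the values with the median in red, and whiskers from the 5th to the 95th percentile. Differences of the group means average 2 arrays a side and so vary less than those of single arrays by construction. The extremes were 0.93 in wild type and 1.11 in gl3 egl3 in absolute value, and -0.90 between the groups.

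With limma across all 22746 probe sets, 0 members passed an adjusted p of 0.05, as did 0 percent of all probe sets, and the smallest adjusted p of a member was 0.234. At an unadjusted p under 0.01, 3 members were called, or 1.5%, compared with 3.25 percent of all probe sets. All 3 were higher in gl3 egl3, a direction that held 2.03 percent of all probe sets, and 0 members were lower, compared with 1.22 percent. At an unadjusted p under 0.05, 21 members were called, or 10.5%, beside 9.31 percent of all probe sets. The methods' t-test at an unadjusted p under 0.01 called 4 members, or 2%, beside 1.42 percent. Both gl3 egl3 arrays lay above both wild type arrays for 37 members, or 18.5%, compared with 38.1 percent of all probe sets. They lay below for 39 members, or 19.5%, compared with 12.7 percent. In all the arrays did not overlap for 76 members, or 38%, beside 50.8 percent of all probe sets. With each array centred the count at an unadjusted p under 0.01 was 0 higher and 2 lower, and with quantile normalization 1 higher and 2 lower.

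The brightest probe sets of wild type were largely also the brightest of gl3 egl3, whose arrays were not used in the choice. Of the 200 members, 171 were among the 200 brightest probe sets of gl3 egl3, which is 85.5% of each list. Lists of the same length taken from single arrays shared 170 probe sets between both wild type arrays and 168 between both gl3 egl3 arrays. From one group to the other they shared 170, 165, 165 and 159, so 1 of these 4 pairs shared as many probe sets as replicates did and the others somewhat fewer. Shorter lists gave 9 of 10, 20 of 25, 39 of 50 and 88 of 100 shared probe sets, and the list of 400 gave 357. The top of the list kept its order in part, with AT1G54410 at rank 1, AT3G62550 at rank 3 and LHCB4.1 at rank 10 in both groups. Across the members, which are not independent replicates, Spearman's rho between the group means was 0.876. Between single arrays it was 0.840 in wild type and 0.862 in gl3 egl3. Averaging arrays tends to raise a correlation, so the value for the group means cannot be set against those of single arrays.

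Of the 200 members, 29 fell below rank 200 in gl3 egl3, 19 below rank 250, 7 below rank 300 and 1 below rank 400. The 29 sat mostly at the lower edge of the list, with a median rank of 177 in wild type and 274 in gl3 egl3, a median log2 difference of -0.21, and 20 of them beyond rank 150 in wild type. They were replaced by 29 probe sets with ranks from 205 to 998 in wild type, a median log2 difference of 0.34 and a median rank of 170 in gl3 egl3. Both sets are defined by their ranks in the groups, so the signs of their median differences follow largely from the choice. The named entrants with the highest places were AT3G61260, which went from rank 220 to 107, AT3G54210 from 263 to 127, AT3G16080 from 287 to 139, AT5G15200 from 252 to 149 and AT1G78040 from 217 to 165. AT3G61260 had log2 values of 11.75 and 11.85 in wild type and of 12.12 and 12.48 in gl3 egl3. At the edge itself, AT4G02480, the unnamed probe set 258161_at and cICDH held the last places of the list with log2 means of 11.89, 11.88 and 11.88. Just outside, the unnamed 261749_at, AT3G14100 and the unnamed 265837_at had 11.88, 11.87 and 11.87, so the edge separates values that differ far less than replicate arrays do.

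**Figure D3:**
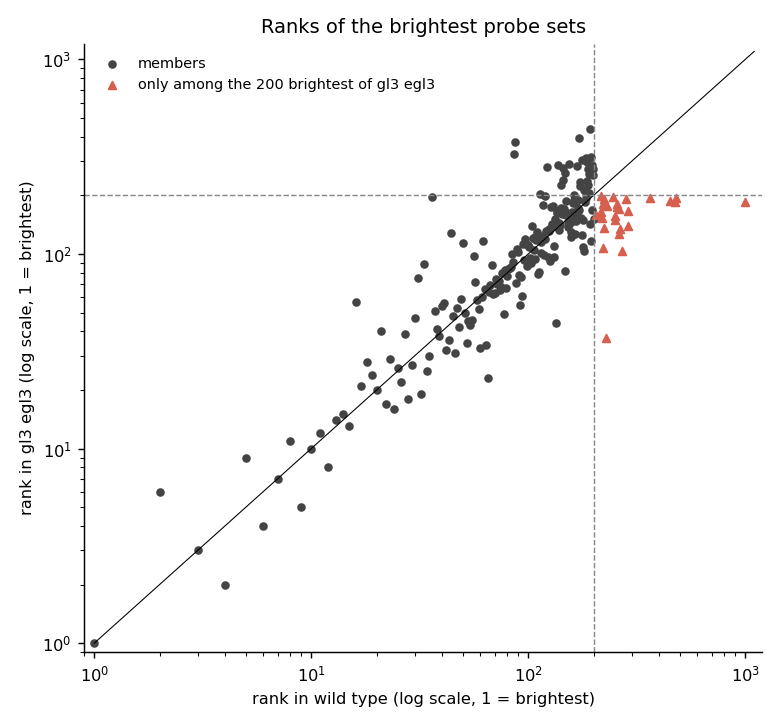
Rank of each probe set in wild type (x axis, log scale) and in gl3 egl3 (y axis, log scale), where rank 1 is the brightest, with members as circles, probe sets found only in the gl3 egl3 list as triangles and the edge of each list as a dashed line. Of the members, 29 lie above the horizontal line, 20 of them beyond rank 150 in wild type.

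The plastid-encoded members were led by the photosystems and the ATP synthase. The 12 genes were psaB for photosystem I, psbA, psbB, psbC, psbD and psbF for photosystem II, atpB, atpE, atpF and atpH for the ATP synthase, rpl36 for the plastid ribosome and cemA for an envelope membrane protein. Their log2 differences ranged from -0.05 to 0.25 with a median of 0.09, 10 being higher in gl3 egl3 and 2 lower, where 14284 of all 22746 probe sets were higher. With quantile normalization 9 were higher and with centring 8, and the medians were 0.04 and 0.05. Leaving out 1 array at a time gave 8 or 9 higher, and the median moved to 0.05 without gl3 egl3 replicate 1 and to 0.14 without gl3 egl3 replicate 2. Arrays of the groups did not overlap for 4 of the 12, psbC, psbD, psbF and atpB, all above wild type in gl3 egl3, a position that 38.1 percent of all probe sets had. In bulk tissue, a difference in the number of cells of a type and a difference in RNA per cell cannot be told apart.

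The gene psbD, which encodes a reaction centre protein of photosystem II, had log2 values of 12.55 and 12.54 in wild type and 12.78 and 12.81 in gl3 egl3. Both mutant arrays were thus above both wild type arrays by more than either pair was apart. The difference was 0.25 (SE 0.02, n = 2 per group), with an adjusted p of 0.236 by limma. Its neighbour psbC, a core antenna protein of photosystem II that is transcribed together with psbD, had 12.27 and 12.38 in wild type and 12.47 and 12.68 in gl3 egl3. The difference was again 0.25 but less certain (SE 0.10, adjusted p 0.674 by limma), and leaving out gl3 egl3 replicate 2 made it 0.15.

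The gene atpB, the beta subunit of the ATP synthase, had 12.14 and 12.13 in wild type and 12.39 and 12.28 in gl3 egl3, a log2 difference of 0.20 (SE 0.05). Its neighbour atpE, the epsilon subunit, had 12.63 and 12.69 in wild type and 12.83 and 12.66 in gl3 egl3, so that the arrays of the groups overlapped. The brightest plastid member, psaB, a reaction centre protein of photosystem I, had 12.97 and 13.17 in wild type and 13.37 and 12.99 in gl3 egl3. Its difference of 0.11 (SE 0.18) was smaller than the gap between the mutant arrays and became -0.08 without gl3 egl3 replicate 1. The reaction centre gene psbA had 12.14 and 11.94 in wild type and 12.18 and 12.03 in gl3 egl3, with overlapping arrays.

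The ribosomal gene rpl36 had a log2 difference of 0.01 and psbB, a core antenna protein, of -0.04, while psbF, a subunit of cytochrome b559, differed by 0.11. The membrane subunits atpF and atpH differed by 0.09 and 0.02. The remaining member, cemA, differed by -0.05 and went from rank 186 to 237, so that 11 of the 12 stayed in the list. In the wider set of 69 plastid-encoded genes with a probe set of their own on the array, the median difference was 0.11. Of the 69, 57 were higher in gl3 egl3 and 12 lower, where 14284 of all 22746 probe sets were higher. At an unadjusted p under 0.01 by limma, 3 of the 69 were called higher and 0 lower. Over all probe sets the shares called were 2.03 percent higher and 1.22 percent lower. None of the 69 passed an adjusted p of 0.05 by limma. The 57 that were not members, from log2 means of 4.40 to 11.75 in wild type, had a median difference of 0.14, with 47 higher and 10 lower. With quantile normalization 51 of the 69 genes were higher, with centring 53, and over the arrays left out in turn between 49 and 59. Over all probe sets the median difference was 0.01.

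**Figure D4:**
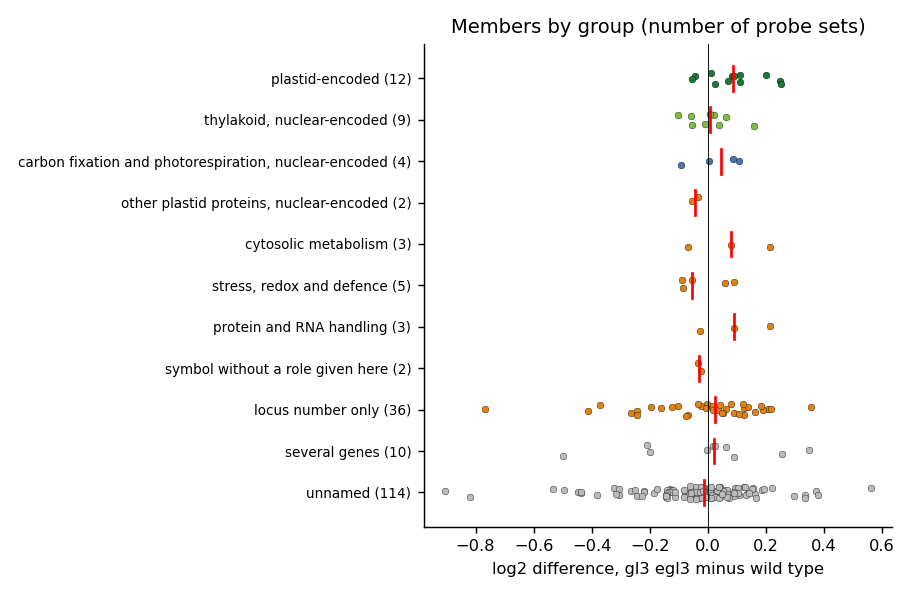
Log2 difference, gl3 egl3 minus wild type (x axis), of each member by group (y axis, with the number of probe sets), 1 point for each probe set and a red bar at the group's median. The 12 plastid-encoded members lie between -0.05 and 0.25, while the widest range, from -0.90 to 0.56, is among the 114 unnamed probe sets, the largest group.

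Among the members grouped by role, 9 were nuclear genes of the thylakoid. They stayed within a narrow band, with log2 differences from -0.10 to 0.16 and a median of 0.01. Of these, 5 were higher and 4 lower as deposited, but 3 and 6 under quantile normalization and under centring alike, and all 9 stayed in the list. The antenna protein LHCB4.1 had 13.39 and 13.24 in wild type and 13.30 and 13.37 in gl3 egl3, with overlapping arrays. PSAN, a subunit of photosystem I on the lumen side, had 12.89 and 12.73 in wild type and 12.92 and 12.82 in gl3 egl3, also overlapping. PSAE-1, a stromal subunit of photosystem I, had 12.70 and 12.76 in wild type but 12.79 and 12.45 in gl3 egl3. Its difference of -0.10 (SE 0.15) came from gl3 egl3 replicate 2 and was 0.07 without that array.

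PSBY and PSB27, small proteins of photosystem II, differed by -0.01 and 0.01. ATPC1, the gamma subunit of the chloroplast ATP synthase and so the nuclear partner of atpB and atpE, had 12.52 and 12.51 in wild type and 12.55 and 12.56 in gl3 egl3, a difference of 0.04. AT4G01150 and AT1G52220, which encode the thylakoid curvature proteins CURT1A and CURT1C, differed by -0.06 and -0.05. PIFI, named for an increase of chlorophyll fluorescence after illumination, had the largest difference of the group, from 12.01 and 11.86 in wild type to 12.06 and 12.12 in gl3 egl3. That is 0.16 with an SE of 0.07 and an adjusted p of 0.702 by limma.

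Among the members grouped by role, 4 belonged to carbon fixation and photorespiration, and all 4 stayed in the list. Their log2 differences ranged from -0.09 to 0.11 with a median of 0.05. Members known by locus number only were given no role, so others may belong to this group. RCA had 12.61 and 12.57 in wild type and 12.51 and 12.48 in gl3 egl3, so both mutant arrays were lower, by 0.09 on average (SE 0.03), with an adjusted p of 0.533 by limma. SBPASE, the sedoheptulose bisphosphatase of the Calvin cycle, had 12.12 and 12.24 in wild type and 12.28 and 12.08 in gl3 egl3. PRK, the phosphoribulokinase of the same cycle, had 12.17 and 11.77 in wild type and 12.12 and 12.03 in gl3 egl3, and its difference of 0.11 became -0.09 without wild type replicate 2. HPR, the hydroxypyruvate reductase of photorespiration, had 12.23 and 11.82 in wild type and 11.94 and 12.28 in gl3 egl3. The arrays of the groups overlapped for SBPASE, PRK and HPR.

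Patterns of gene names for light harvesting, the photosystems, carbon fixation and photorespiration picked out 20 nuclear genes with a probe set of their own on the array, of which 9 were members. The patterns also took TPI, GAPC2, F2KP and GFAT, which act in cytosolic sugar metabolism, TPI being one of the 9. The median difference was -0.04 over the 20 and 0.00 over the 9, and 0 of the 20 were called in either direction at an unadjusted p under 0.01 by limma. The other plastid proteins among the members were AT1G74470, a geranylgeranyl reductase that supplies the side chain of chlorophyll, and FUG1, a translation initiation factor of the chloroplast. AT1G74470 had 12.30 on both wild type arrays and 12.35 and 12.15 in gl3 egl3. FUG1 had 12.34 and 11.77 in wild type and 11.67 and 12.37 in gl3 egl3, so that its replicates were farther apart than its group means, which differed by -0.04.

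The brightest probe set on all 4 arrays was that of AT1G54410, a small dehydrin known as HIRD11. Dehydrins are hydrophilic proteins that accumulate when cells lose water. Its log2 values were 14.07 and 14.13 in wild type and 14.04 and 14.05 in gl3 egl3, a difference of -0.05 (SE 0.03). COR47, a cold-regulated dehydrin, had 12.51 and 12.64 in wild type and 12.60 and 12.67 in gl3 egl3. RD2, named for its response to desiccation, had 12.25 on both wild type arrays and 12.33 and 12.35 in gl3 egl3, which is 0.09 with an SE of 0.02 and an adjusted p of 0.366 by limma. GSTL3, a glutathione transferase, and LCR69, a small cysteine-rich protein of the defensin family, both differed by -0.09, and GSTL3 went from rank 174 to 234. The 5 members of stress, redox and defence had a median difference of -0.05, with 2 higher and 3 lower.

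Among enzymes of the cytosol, cICDH, the NADP-dependent isocitrate dehydrogenase, had 11.93 and 11.82 in wild type and 12.13 and 12.05 in gl3 egl3, a log2 difference of 0.21 (SE 0.06) with an adjusted p of 0.517 by limma. TPI, the triosephosphate isomerase of glycolysis, and GME, the GDP-mannose epimerase of ascorbate synthesis, differed by -0.07 and 0.08. For protein and RNA handling, UBC28, a ubiquitin-conjugating enzyme, had 12.10 and 11.87 in wild type and 12.12 and 12.28 in gl3 egl3, a difference of 0.21 (SE 0.12). The RNA-binding protein RBP45B differed by 0.09, and the aspartic proteinase APA1 had 13.05 and 13.17 in wild type and 13.06 and 13.10 in gl3 egl3. The members CCL and AILP1 differed by -0.04 and -0.02.

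The largest differences of named members were found among the 36 genes given by a locus number only, which ranged from -0.77 to 0.36. Of these, 20 were higher and 16 lower as deposited, and 27 stayed in the list. AT2G41090 had log2 values of 12.80 and 11.97 in wild type and 12.02 and 11.22 in gl3 egl3. The groups overlapped, and the arrays of each group were farther apart than the group means, which differed by -0.77 (SE 0.50), with an adjusted p of 0.793 by limma. The gene went from rank 86 to 327. Its difference lay between -1.18 and -0.35 when 1 array at a time was left out.

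AT1G09310 had 12.69 and 12.61 in wild type and 12.40 and 12.06 in gl3 egl3, so both mutant arrays were lower, with a difference of -0.41 (SE 0.15) and an adjusted p of 0.633 by limma. It went from rank 50 to 114, and leaving out gl3 egl3 replicate 2 moved the difference to -0.24. AT2G46600 had 12.12 and 12.07 in wild type and 11.60 and 11.86 in gl3 egl3, a difference of -0.37 (SE 0.12) with an adjusted p of 0.574 by limma, and went from rank 137 to 286. The arrays did not overlap for AT4G23670 at -0.26, AT3G52800 at -0.24 and AT1G23130 at -0.24, which ended at ranks 260, 303 and 311. With 1 array left out, AT4G23670 moved to -0.10 and AT1G23130 to -0.08, both without gl3 egl3 replicate 2, and AT3G52800 to -0.11 without gl3 egl3 replicate 1. The arrays overlapped for AT1G51400, AT1G21680 and AT4G02480, which differed by -0.20, -0.16 and -0.12.

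In the other direction, AT1G32460 had 12.11 and 11.75 in wild type and 12.07 and 12.51 in gl3 egl3, which overlapped, with a difference of 0.36 (SE 0.25) that became 0.14 without gl3 egl3 replicate 2. Its neighbour on chromosome 1, AT1G32470, was also a member and differed by 0.22 with no overlap. AT1G29670 had 12.01 on both wild type arrays and 12.19 and 12.20 in gl3 egl3. Its difference of 0.18 was small, but with an SE of 0.01 it had the lowest adjusted p of the members, 0.234 by limma. AT4G16980 and AT1G11860 differed by 0.21 and 0.19, both without overlap. Of the brightest members of this kind, AT3G62550 had 13.57 and 13.51 in wild type and 13.56 and 13.59 in gl3 egl3, while AT5G24490, AT4G32060 and AT2G26500 differed by 0.01, -0.10 and 0.06.

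**Figure D5:**
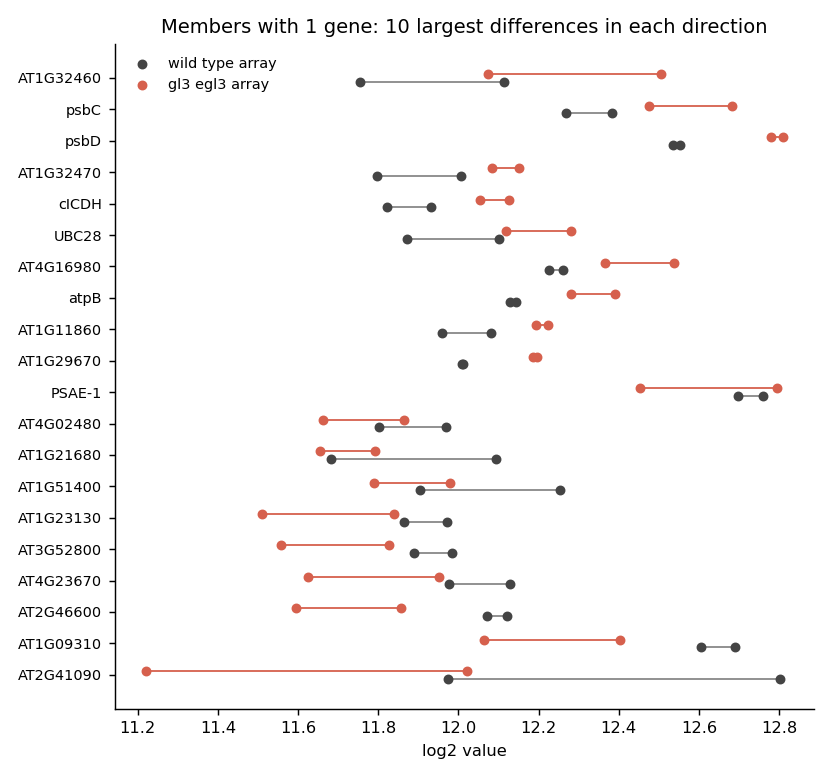
Log2 value (x axis) on each of the 4 arrays for the members with 1 gene that had the 10 largest differences in each direction, with wild type in dark grey and gl3 egl3 in red and a line joining the arrays of a group. The lines of AT2G41090 and AT1G32460 overlap between the groups, and those of psbD and AT1G29670 are short and apart.

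The unnamed members had a wider range than any named group, from -0.90 to 0.56, with 52 higher and 62 lower, and 100 of the 114 stayed in the list. They are also the largest group, and a range tends to widen with the number of probe sets. The following were singled out for their values. The probe set 258239_at had log2 values of 12.43 and 12.35 in wild type and 11.81 and 11.16 in gl3 egl3, a difference of -0.90 (SE 0.28), and went from rank 87 to 376. Without gl3 egl3 replicate 2 the difference was -0.58. The probe set 263345_s_at had 12.68 and 12.86 in wild type and 12.13 and 11.77 in gl3 egl3, a difference of -0.82 (SE 0.17). For both, each mutant array was below each wild type array, and the adjusted p was 0.572 and 0.424 by limma. The probe set 266533_s_at had 12.18 and 12.08 in wild type and 12.61 and 12.78 in gl3 egl3, a difference of 0.56 (SE 0.09) with an adjusted p of 0.33 by limma, and went from rank 134 to 44. The probe set 262947_at had 13.09 and 13.15 in wild type and 13.47 and 13.43 in gl3 egl3, a difference of 0.33 (SE 0.03) with an adjusted p of 0.240 by limma.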

How the data were processed

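For each probe set the authors deposited a log2 value from GCRMA, which corrects background by probe sequence, applies quantile normalization and combines probes by median polish. The sources used here give neither its version nor whether other arrays were normalized together with these. RNA was amplified before labelling.

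Ranks were taken over 22746 probe sets. The platform annotation gave 13513 of them 1 gene, and 13436 of these matched RefSeq (TAIR10.1), used for names and neighbouring genes only. Members with a symbol were grouped by hand. The mutant was compared with wild type by limma 3.58.1 under R 4.3.3 (lmFit and eBayes, two-sided), with Benjamini-Hochberg adjustment over all probe sets tested. The fit has 2 residual degrees of freedom, to which the prior added 0.623, so the number of arrays limits precision. Scripts were tested on simulated data.

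Members, groups and lists were chosen with earlier results of these data known. Named were, among members with 1 gene, the 10 brightest, the 10 largest differences in each direction, the brightest and most different of each group, the edges of the list, the largest moves in rank and those at an unadjusted p under 0.01; other members are named to complete their group, after their values were seen. Alternatives were other scalings, filters, variance models, list sizes, choices of arrays and each array left out. Promoter and protein sequences were not analysed here.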

Additional observations from a re-analysis of the deposited data

How the results depend on the processing

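The share of the list found in both genotypes lay between 81.5% and 89.25% over 10 alternatives. The count at an adjusted p of 0.05 was 0 under the 16 alternatives run for it, by limma or the methods' t-test, but since 0 of all probe sets passed as well, it says nothing about stability. The median log2 difference of the members was 0.00 and lay between -0.03 and 0.03 under the other alternatives, but was 0.041 with members chosen on the gl3 egl3 arrays.

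The counts at an unadjusted p under 0.01, 3 members higher and 0 lower, moved with most settings, and the cause was not tested. Members higher numbered 1 with quantile normalization, 0 with centring, 5 with 16 added on the linear scale, 0 with only probe sets of a mean of 5 or more, 1 with an intensity trend and robust variances, 8 in a list of 400, 7 with members chosen on the gl3 egl3 arrays, and 0 to 4 with 1 array left out: 0 on dropping either gl3 egl3 array, 1 on dropping the second wild type array and 4 on dropping the first. Members lower numbered 2 with quantile normalization, 2 with centring, 1 with only probe sets of a mean of 5 or more, 4 in a list of 400 and 0 to 3 with 1 array left out: 2 on dropping the first array of either group and 3 on dropping the second wild type array. A group left with 1 array is assumed to vary like the other.

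The sample numbers in the titles are shared by the groups, but the labels do not say that they pair samples, and deviations of same-numbered samples correlated at 0.134 over all probe sets. With the number as a replicate block the counts were 1 higher and 1 lower.

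Of the 63 members named with a difference, 32 changed sign or went to 0 under at least 1 alternative, in 55 of 565 values. The sign of AT3G62550 turned and that of AT1G54410 went to 0 with quantile normalization, those of rpl36 and AT5G24490 with centring, and those of LHCB4.1, SBPASE, PSB27 and atpH with both. Of the 29 with an absolute difference of 0.1 or more, 5 changed sign, each on leaving out 1 array: psaB, PSAE-1, PRK, AT4G32060 (0.02 without gl3 egl3 replicate 2) and AT1G21680 (0.04 without wild type replicate 2).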
